A study of Mus musculus with 8 samples.

Results

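Scg5, Adi1 and Nudt19 are 3 of the 27248 gene names carried by the array. They were chosen by their strain difference in signal: the study listed each of them as changed on these same arrays and found the same direction in every BTBR/J dataset it compared. Those other datasets were not analysed here. All probes named for the genes were taken, which gave 1 probe for Scg5, 1 for Adi1 and 3 for Nudt19. The probe of each gene that stood in the study's list of changed genes is called the listed probe. Because the strain contrast chose the genes, their differences between strains are given as a description with no test, and tests are given for the genes that flank them on the chromosome, for the pathways in which they act and for some cell type markers.

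RNA came from the whole cerebral cortex with the striatum of 8 male mice. The 4 control animals were C57BL/6J (B6) mice aged 4 months. The 4 BTBR/R animals carried the strain name BTBRTF/ArtRbrc, and 3 of them were 4 months and BTBR/R replicate 1 was 6 months old. BTBR/R is a subline of BTBR, an inbred strain known for the T, Itpr3 tf and a t mutations and used as a model of autism-like behaviour, while BTBR/J is the subline kept elsewhere. The inbred strains differ at many loci besides these mutations, so no single allele is compared. Each array held the Cy3-labelled RNA of 1 mouse and all 8 lay on 1 slide, where B6 and BTBR/R occupied different columns, and the effects of strain and of slide column cannot be told apart.

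Scg5 encodes a secretory granule protein of neurons and endocrine cells that binds the prohormone convertase made from Pcsk2 and is needed for that enzyme to mature and become active. Adi1 encodes acireductone dioxygenase, which acts near the end of methionine salvage, the pathway that turns the methylthioadenosine left over from polyamine synthesis back into methionine. Nudt19 encodes a peroxisomal Nudix hydrolase that cleaves coenzyme A (CoA) and its acyl esters and is best known from the kidney. The convertases and granins are abundant in peptide-releasing neurons, while salvage and CoA turnover are housekeeping routes of most cells.

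Signals are given as scaled signal, the processed signal on a log2 scale after subtracting that array's own 75th percentile, so that 0 is the 75th percentile and 1 unit is 2-fold. A probe counts as detected where the scanner's flag put it well above background. The share of probes detected was 64.5% to 66.8% on B6 arrays and 53.5% to 57.2% on BTBR/R arrays. The lowest signal of a detected probe was 14.5 to 17.8 in B6 and 36.1 to 47.1 in BTBR/R, so a dim probe could be seen in B6 and missed in BTBR/R. Each of the 5 probes for Scg5, Adi1 and Nudt19 was detected on every array, and none was saturated. All 7 markers of cortical projection neurons and all 7 of striatal projection neurons were detected on all 8 arrays. Their summed scaled signal (linear scale) ran from 28.3 to 32.6 in B6 and from 30.6 to 34.4 in BTBR/R for the cortical list, and from 212 to 227 in B6 and from 200 to 228 in BTBR/R for the striatal list. Such a sum gives bright probes most weight. Single cortical probes differed between strains by -0.39, for Rorb, to 0.39, for Cux2, and striatal ones by -0.31, for Drd1, to 0.12, for Rgs9. The corresponding sums were 2.72 to 42.1 in B6 and 6.22 to 26.1 in BTBR/R for choroid plexus markers, and 46.8 to 48.8 in B6 and 43.9 to 47.9 in BTBR/R for microglial markers. Of the 7 microglial probes 1 was called (adjusted p below 0.05 in limma and at least 2-fold), where 2.2% of all probes detected on all 8 arrays were. This was Cx3cr1 A_52_P99810 at 1.71 (limma, adjusted p = 7.59e-07), while the second Cx3cr1 probe differed by -0.71 (limma, adjusted p = 8.71e-05). The rest differed by -0.35, for C1qa (limma, adjusted p = 0.00108), to 0.22, for P2ry12. No probe of the cortical, striatal, choroid plexus, hypothalamic or oligodendrocyte marker lists was called. In tissue RNA, fewer cells of a type and less RNA per cell cannot be told apart.

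The middle of each probe is shown to make plain which stretch of each transcript was measured. Letters are those of the probe, 5′ to 3′, 30 of the 60 bases are given, and capitals mark the polyadenylation signal motif AATAAA.
Scg5, A_55_P1981929, bases 17 to 46: ctgctacattagAATAAAagctccttctct
Adi1, A_55_P2121913, bases 16 to 45: ttctttcttaaaactaagttaccttaattg
Nudt19, A_51_P111952, bases 16 to 45: cttgtttcttgtgtcgggcttttgatcaca
Nudt19, A_55_P2646703, bases 16 to 45: tatgtctactgacaaaaagactgaagaaat
Nudt19, A_66_P111823, bases 16 to 45: gtctaaaaatctaaggaatgtacccataaa
The motif lay at base 29 of the Scg5 probe and in none of the other 4 probes. It was searched as AATAAA on the printed strand and was present in 9.77% of all 56605 probes, and none of the 5 probes held its reverse complement, present in 3.85%. In the build mm9, the Scg5 probe matched chr2:113616781-113616840 on the minus strand and the Adi1 probe chr12:29366350-29366409 on the plus strand. The Nudt19 probes matched the minus strand at chr7:36332321-36332380 for A_51_P111952, chr7:36333055-36333114 for A_55_P2646703 and chr7:36332834-36332893 for A_66_P111823. Whether these stretches are coding or untranslated was not looked up here.

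Scg5 was higher in BTBR/R. Its scaled signal was 5.08, 5.04, 4.99 and 5.18 in the 4 B6 mice and 6.21, 6.19, 6.29 and 6.32 in the 4 BTBR/R mice. The strains did not overlap, and the highest B6 mouse lay 1.01 below the lowest BTBR/R mouse. The means were 5.07 ± 0.08 in B6 and 6.25 ± 0.06 in BTBR/R (SD, n = 4 each), a difference of 1.18 (SE 0.06), or 2.26-fold. Before scaling, the processed signal ran from 17733 to 20663 in B6 and from 39013 to 47145 in BTBR/R, far above the lowest detected signal of any array. Because neuroendocrine neurons of the hypothalamus also express Scg5, their markers were measured beside it. Oxt, Avp, Hcrt and Trh were detected on all 8 arrays, and Pmch was detected on 3 B6 arrays and 1 BTBR/R array. The summed scaled signal of this list (linear scale) ranged from 2.61 to 28.7 in B6 and from 2.81 to 8.72 in BTBR/R, and the part of these cells in the Scg5 values was not tested.

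Adi1 was also higher in BTBR/R, by a similar factor. Its scaled signal was -0.57, -0.59, -0.62 and -0.68 in B6 and 0.64, 0.54, 0.50 and 0.51 in BTBR/R. Again the strains did not overlap, with a gap of 1.07 between the nearest mice. The means were -0.61 ± 0.05 in B6 and 0.55 ± 0.07 in BTBR/R (SD, n = 4 each), a difference of 1.16 (SE 0.05), or 2.24-fold. The highest BTBR/R value came from replicate 1, the 6-month-old mouse, and without that mouse the difference was 1.13. The processed signal was 357 to 380 in B6 and 776 to 885 in BTBR/R.

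Nudt19 was lower in BTBR/R on every one of its probes. On the listed probe, A_51_P111952, its scaled signal was 4.26, 4.24, 4.16 and 4.31 in B6 and 2.41, 2.46, 2.49 and 2.50 in BTBR/R. The gap between the nearest mice was 1.66, the widest of the 5 probes. The means were 4.24 ± 0.06 in B6 and 2.46 ± 0.04 in BTBR/R (SD, n = 4 each), a difference of -1.78 (SE 0.05), with B6 3.43-fold above BTBR/R.

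The other probes of Nudt19 gave smaller differences in the same direction. On A_55_P2646703 the scaled signal was -0.54, -0.59, -0.61 and -0.52 in B6 and -1.60, -1.53, -1.50 and -1.44 in BTBR/R, a difference of -0.95 (SE 0.05), or 1.94-fold. On A_66_P111823 it was 1.29, 1.46, 1.29 and 1.44 in B6 and 0.65, 0.59, 0.65 and 0.71 in BTBR/R, a difference of -0.72 (SE 0.06), or 1.65-fold. No BTBR/R mouse reached the lowest B6 mouse on either probe. A_55_P2646703 and A_66_P111823 begin at bases 1011 and 1232 of the transcript and the listed probe at base 1745, nearest the 3′ end. The listed probe was chosen by the study for passing 2-fold, so its larger difference is not read as a trend along the transcript. It was also brighter, with a processed signal in B6 of 9951 to 11309, against 363 to 399 on A_55_P2646703 and 1362 to 1549 on A_66_P111823. The listed probe lies 734 bases from the former and 513 from the latter, both on the transcript and on the genome. The difference between strains on the listed probe exceeded that on the former by 0.83 and that on the latter by 1.06 on the log2 scale. The Nudt19 probes therefore shared the direction but not the size of the strain difference, and Scg5 and Adi1, with 1 probe each, allowed no such comparison.

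**Figure D1:**
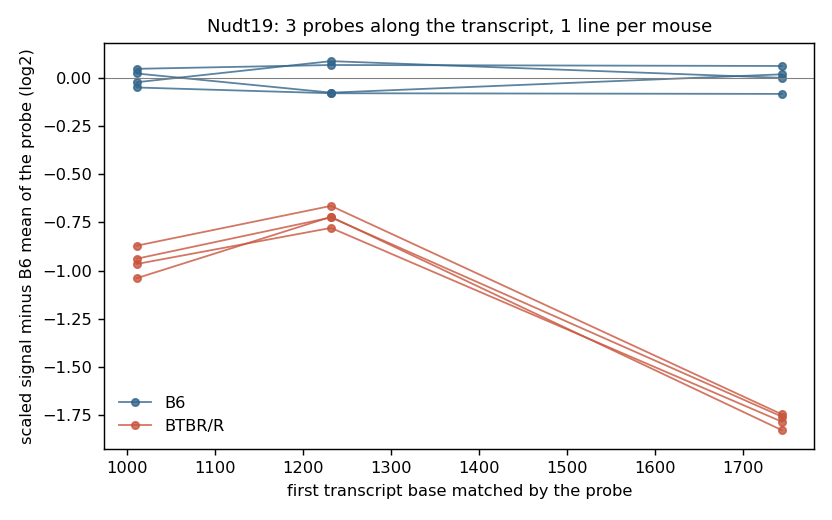
Scaled signal of the 3 Nudt19 probes (log2, vertical axis), with the B6 mean of each probe set to 0, against the first transcript base that the probe matches (horizontal axis). Each line is 1 mouse, with 4 B6 and 4 BTBR/R mice. The BTBR/R lines lie lowest at the listed probe, at base 1745, where the mean difference was -1.78. That probe was chosen by its strain difference, so no trend along the transcript is read.

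Across the 5 probes, the pooled SD within strains was 0.05 to 0.07. Of the 28557 probes detected on all 8 arrays, between 64.0% and 84.4% had a larger pooled SD than a given probe of the 3 genes. The test by which the study listed the genes favours a small spread within strains, so nothing is read from these percentages. Past the 2-fold threshold of the study lay 3 of the 5 probes, the listed ones, which follows from their choice, since the study listed probes by that threshold. The nearest values on either side of it were 2.24-fold for Adi1 and 1.94-fold for Nudt19 A_55_P2646703. Of the same 28557 probes, 2.2% were called, with an adjusted p below 0.05 in limma and at least 2-fold, and since this contrast chose the genes nothing is read from their share. Leaving out the 6-month-old mouse gave differences of 1.19 for Scg5, -1.76 for the listed Nudt19 probe, -0.92 for A_55_P2646703 and -0.72 for A_66_P111823.

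**Figure D2:**
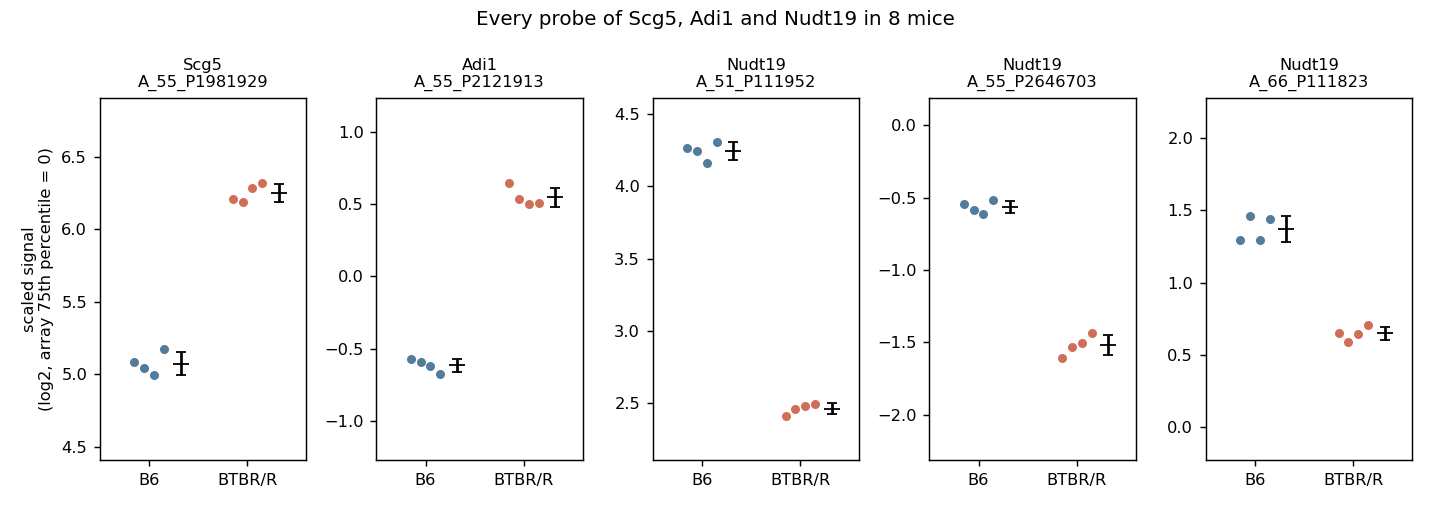
Scaled signal (log2, vertical axis, the same span of 2.5 units in every panel) of each probe of Scg5, Adi1 and Nudt19 in the 4 B6 and 4 BTBR/R mice. Points are mice, and the black marks beside them show the mean with SD. The strains do not overlap on any of the 5 probes, with BTBR/R above B6 for Scg5 and Adi1 and below it for Nudt19.

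For each gene, the 10 gene names nearest on either side were taken as flanking genes, which gave 60 genes with 114 probes. Of these probes, 85 were detected in all 4 mice of B6, of BTBR/R or of both (hereafter detected in a strain), and 10 of the 85 were called (limma, adjusted p below 0.05 and at least 2-fold), 2 higher and 8 lower in BTBR/R. That was 11.8% of the flanking probes, where 4.41% of all 35540 probes detected in a strain were called. Among the 59 flanking probes detected on all 8 arrays 4 were called, beside the 2.2% given above. The median difference of the 59 was -0.11, where that of all probes detected on all 8 arrays was 0.0015. Of the 10 called, 3 (those of Ryr3 and Gm20187 and 1 of Trappc12) were not well above background on any BTBR/R array. With every signal raised to the highest detection limit 7 flanking probes were called. The counts were 2 of 29 probes around Scg5, 6 of 31 around Adi1 and 2 of 25 around Nudt19. Within 1 Mb of the listed probe, whatever the gene name, 2 of 19 probes were called around Scg5, 4 of 16 around Adi1 and 2 of 30 around Nudt19.

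Around Scg5, no probe of the neighbours on either side was called. Grem1, which encodes a secreted inhibitor of bone morphogenetic proteins, had its probe 27.6 kb away and differed by -0.19 (limma, adjusted p = 0.378). On the other side Arhgap11a was detected on 2 B6 arrays and no BTBR/R array by its nearer probe (limma, adjusted p = 0.256), and its other probe, not well above background on any array, gave an adjusted p of 0.0251 in limma without reaching 2-fold. Aqr, a helicase of the spliceosome, fell on all 3 of its probes that were detected on all 8 arrays, and 1 of these reached 2-fold. That probe, A_52_P20357, had means of -0.34 ± 0.05 in B6 and -1.82 ± 0.06 in BTBR/R (SD, n = 4 each), a difference of -1.49 (SE 0.05, limma, adjusted p = 3.54e-06), while A_66_P120481 and A_55_P2722223 fell by 0.47 and 0.50 (limma, adjusted p = 0.000776 and 0.00137). The last pair of Aqr probes was detected on 0 and 2 BTBR/R arrays and did not pass the test. Ryr3, a calcium release channel, had 1 called probe, A_51_P519354, that was not well above background on any BTBR/R array. Its signal in B6 was too near the detection limit to give a fold (limma, adjusted p = 0.0321). With every signal raised to the highest detection limit of the 8 arrays the difference was -0.17, and the call was also lost under normexp background correction, quantile normalization, the replicate block and the methods' t-test, and when any 1 of 6 mice was left out. The other Ryr3 probes differed by -0.20 and -0.19.

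Around Adi1, its immediate neighbour Trappc12, a subunit of the vesicle-tethering TRAPP complexes, fell on both of its called probes, in the opposite direction to Adi1. Probe A_55_P2490874, 28.0 kb away, had a mean of -0.55 ± 0.12 in B6 (SD, n = 4) and was not well above background on any BTBR/R array. B6 was at least 8.90-fold above BTBR/R on it, taking for each BTBR/R array the higher of its lowest detected signal and the probe's own (limma, adjusted p = 3.05e-07). Probe A_66_P133659, 21.4 kb away and detected on all 8 arrays, fell from -0.06 ± 0.10 to -2.12 ± 0.15 (SD, n = 4 each), a difference of -2.06 (SE 0.09, limma, adjusted p = 1.18e-05). The Trappc12 probe nearest to Adi1, A_52_P555680 at 9.57 kb, went the other way, from 2.57 ± 0.03 to 3.09 ± 0.04, a difference of 0.51 (SE 0.04, limma, adjusted p = 4.73e-05) that stayed below 2-fold. The last pair of Trappc12 probes was detected on 1 and 0 BTBR/R arrays, with adjusted p of 0.743 and 0.302 in limma. Probes named for Trappc12 thus differed in direction, and which transcripts each of them reads was not tested.

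On the other side of Adi1, Rnaseh1, the enzyme that cleaves RNA paired with DNA, was 0.20 higher on both of its probes, with adjusted p of 0.0962 and 0.0103 in limma, and neither reached 2-fold. Allc, which encodes allantoicase, rose by 1.001 (SE 0.10, limma, adjusted p = 9.67e-05), right at the threshold of 2-fold. It was the only called flanking probe of Adi1 with the direction of Adi1, it was detected on 3 of 4 BTBR/R arrays, and the call was lost when any 1 of 4 mice was left out, under median scaling (0.97) and with the percentile taken over probes detected on all 8 arrays (0.99). With every signal raised to the highest detection limit its difference was 0.17. Pxdn, a peroxidase of the extracellular matrix, fell on both of its probes that were detected on all 8 arrays. One fell by 1.21 (SE 0.13, limma, adjusted p = 0.000233) and was called, and A_55_P2856618 fell by 0.41 (limma, adjusted p = 0.00182) without reaching 2-fold, while the third was not well above background on any BTBR/R array. LOC102634058 was at least 3.14-fold higher in B6, with 2 of 4 BTBR/R arrays well above background (limma, adjusted p = 2.76e-05). Gm20187 was called (limma, adjusted p = 4.16e-05) but was not well above background on any BTBR/R array and lay too near the detection limit in B6 to give a fold, and its difference was 0 with every signal raised to the highest detection limit.

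Around Nudt19, the nearest genes did not pass the test. B230322F03Rik, 9.42 kb away, differed by -0.36 (limma, adjusted p = 0.357), and Tdrd12, a germline tudor-domain protein, by 0.58 on the 1 of its 2 probes that was detected on all B6 arrays (limma, adjusted p = 0.150). Zfp507, a zinc finger protein gene, fell on A_55_P2737592, with a mean of -0.10 ± 0.08 in B6 (SD, n = 4) and 1 of 4 BTBR/R arrays well above background. B6 was at least 3.42 above BTBR/R on the log2 scale (limma, adjusted p = 4.03e-06), while the other Zfp507 probe differed by 0.11. Dpy19l3, which encodes a mannosyltransferase, rose by 1.08 on A_66_P112892 (SE 0.06, limma, adjusted p = 2.76e-05) and by 0.29 on A_52_P237102 (limma, adjusted p = 0.0164), which stayed below 2-fold, and its other probes differed by 0.10 and -0.25. Under the normexp background correction Ryr3, Allc, Gm20187, Pxdn and Dpy19l3 lost the call, which left 5 called flanking probes.

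**Figure D3:**
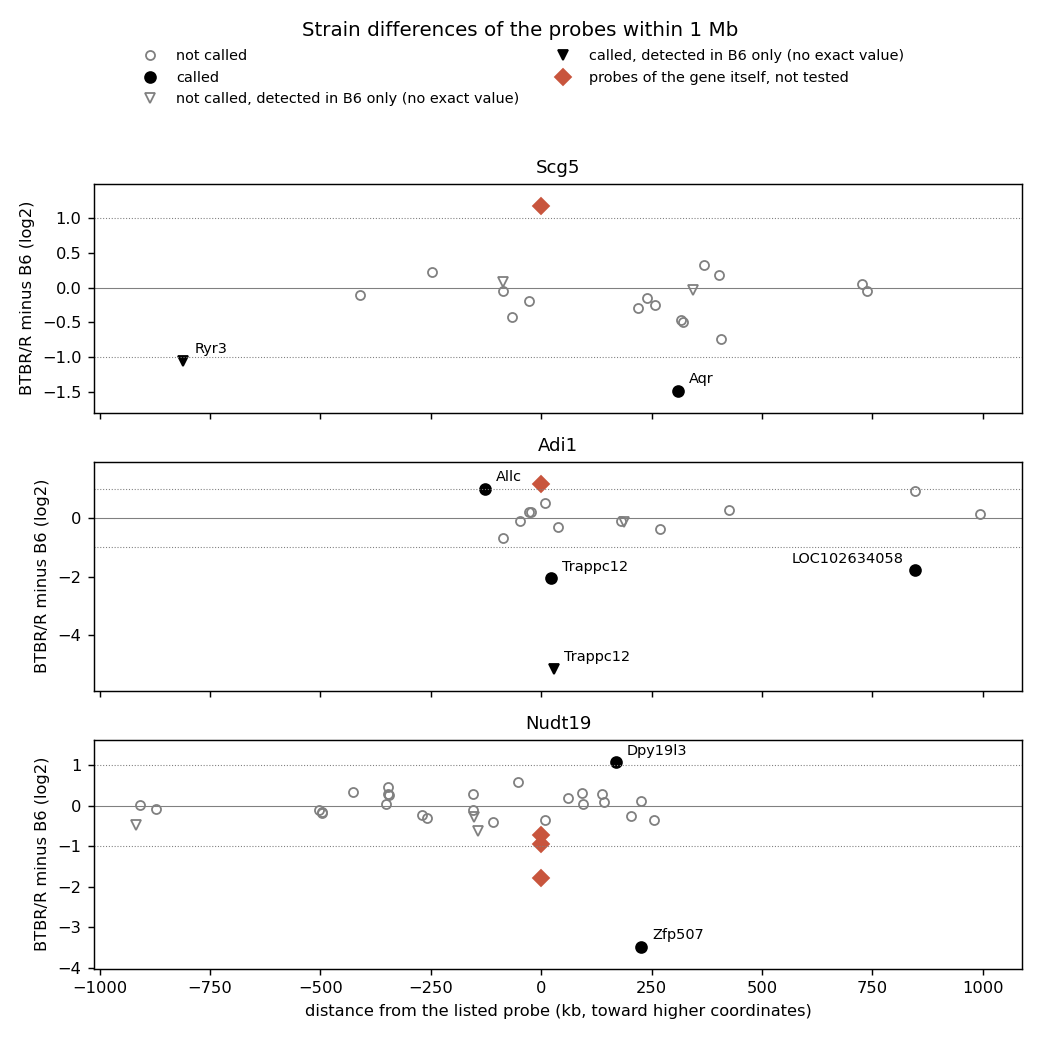
Difference between strains (BTBR/R minus B6, log2 scaled signal, vertical axis) of the probes detected in a strain (on all 4 arrays of B6, BTBR/R or both) within 1 Mb of each listed probe, against their distance from it in kb (horizontal axis). Filled symbols were called (adjusted p below 0.05 in limma and at least 2-fold, dotted lines) and carry the gene name, open ones were not, and diamonds at 0 are the probes of Scg5, Adi1 and Nudt19, which were not tested. Triangles are probes that were not well above background on any BTBR/R array, whose height is set by background and is no exact value. Among the called circles, Aqr near Scg5 lies below 0, and those near Adi1 and Nudt19 lie on both sides.

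Prohormone processing, in which the Scg5 protein acts, was followed through 16 genes for convertases, trimming enzymes and granins. Of 27 probes detected in a strain, 2 were called, both of Pam and both higher in BTBR/R. That was 7.41% of the list beside 4.41% of all probes, and the median difference was -0.02 for the 27 and -0.02 for all probes detected in a strain. Pcsk2, the convertase that the Scg5 protein binds, differed by 0.05 and -0.07 on its probes, with adjusted p of 0.579 and 0.536 in limma. Pcsk1, the other neuronal convertase, passed the adjusted p but not the fold threshold, at 0.48 higher in BTBR/R (SE 0.06, limma, adjusted p = 0.000411). Pcsk1n, whose product inhibits that convertase, differed by 0.13 and Cpe, the carboxypeptidase that trims the cut peptides, by -0.19.

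Pam encodes the enzyme that amidates peptides at their end. Its probe A_55_P1969156 had a scaled signal of -0.55, -0.40, -0.46 and -0.55 in B6 and 1.45, 1.68, 1.40 and 1.61 in BTBR/R. The strains did not overlap, and the difference was 2.03 (SE 0.08, limma, adjusted p = 5.81e-06). Probe A_52_P546610 rose by 1.68 (SE 0.10, limma, adjusted p = 2.76e-05). The other 3 Pam probes detected in a strain differed by -0.50 to 0.20, so the strain difference of Pam varied between probes in size and direction. None of the 6 granin probes was called by limma, with differences from -0.31 to 0.14, and 2 of the 6 had an unadjusted p below 0.05, where 36.8% of all probes detected in a strain did. Scg3 fell by 0.31 (limma, adjusted p = 0.000687), below 2-fold, and Chga and Chgb differed by 0.14 and -0.02. Among the 11 convertase probes none was called either, where 7 had an unadjusted p below 0.05, to be read against the same 36.8%. The methods' t-test called 0 of the granin probes and 0 of the convertase probes.

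Methionine salvage, the methionine cycle and polyamine metabolism, the routes around Adi1, were followed through 22 genes with probes. Of 45 probes detected in a strain, 0 were called by limma and 0 by the methods' t-test, beside 4.41% of all probes called. An unadjusted p below 0.05 in limma was reached by 14 of the 45, or 31.1%, below the 36.8% of all probes detected in a strain. The differences ran from -0.99 to 0.48 with a median of -0.01, where that of all probes detected in a strain was -0.02. Enoph1, which makes the acireductone that the Adi1 enzyme uses, differed by -0.09 and -0.06 on its probes. Apip and Mtap, which act earlier in salvage, differed by -0.10 and, on the detected Mtap probe, 0.07. Mri1, the isomerase of the pathway, was 0.33 lower in BTBR/R (limma, adjusted p = 0.0208) without reaching 2-fold. Mat2a, which makes S-adenosylmethionine, differed by -0.11 to 0.08 on its 3 probes. Odc1, the first enzyme of polyamine synthesis, was 0.35 lower on 1 probe (limma, adjusted p = 0.00148) and differed by -0.00 (SE 0.05) on the other. The lowest value belonged to 1 of the 3 probes of Mat2b, the regulatory partner of Mat2a, at -0.99 (SE 0.14, limma, adjusted p = 0.00107), just under 2-fold.

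CoA synthesis, CoA breakdown, peroxisomal acyl-CoA metabolism and import into the peroxisome, the routes around Nudt19, were followed through 31 genes. Of 45 probes detected in a strain, 4 were called, all of them lower in BTBR/R. That was 8.89%, where 3.38% of all probes detected in a strain were called lower and 1.03% higher. The median difference was -0.13 for the list and -0.02 for all probes detected in a strain. Among the 38 probes detected on all 8 arrays 3 were called, beside the 2.2% given above, since Hacl1 passed the filter through B6 alone. Amacr, the racemase that prepares branched acyl-CoA for oxidation, fell from 1.50 ± 0.08 to 0.22 ± 0.08 (SD, n = 4 each), a difference of -1.28 (SE 0.06, limma, adjusted p = 1.82e-05). Acox3, a peroxisomal oxidase of branched acyl-CoA, fell on A_55_P1971579 by 1.26 (SE 0.07, limma, adjusted p = 2.76e-05), while its other 3 probes differed by -0.11 to 0.19. Abcd2, which carries very long acyl-CoA into the peroxisome, fell by 1.13 (SE 0.14, limma, adjusted p = 0.000402) on 1 probe and differed by 0.18 on the other. Hacl1, the lyase of alpha-oxidation, had 1 called probe that was not well above background on any BTBR/R array and lay too near the detection limit in B6 to give a fold, with a difference of 0 once every signal was raised to the highest detection limit. The other Hacl1 probe was 0.36 lower in BTBR/R (limma, adjusted p = 0.0292). Under the normexp background correction Abcd2 and Hacl1 lost the call.

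The other CoA hydrolases did not fall by 2-fold. Nudt7, the peroxisomal relative of Nudt19 best known from the liver, was lower by 0.40 and 0.58 on its detected probes (limma, adjusted p = 0.00138 and 0.000734). Nudt8, which acts in mitochondria, differed by -0.04 on its detected probe (limma, adjusted p = 0.536). None of these 3 probes was called by limma or the methods' t-test, with 2 at an unadjusted p below 0.05 in limma. Of all probes detected in a strain, limma called 4.41% and gave 36.8% an unadjusted p below 0.05. In CoA synthesis 0 of 9 probes were called by either test, with differences from -0.33 to 0.18. An unadjusted p below 0.05 in limma was reached by 4 of the 9, to be read against the same shares. Of the pantothenate kinases, which open the route, Pank4 was 0.33 lower (limma, adjusted p = 0.000749) and Pank3 0.18 higher (limma, adjusted p = 0.0360) in BTBR/R, and Pank1 differed by -0.21 (limma, adjusted p = 0.0557). Coasy, the last enzyme, differed by -0.15 and -0.08. Acot8, a peroxisomal thioesterase, differed by 0.00 (SE 0.05). Markers of oligodendrocytes, cells rich in lipid enzymes, had a summed scaled signal (linear scale) of 202 to 256 in B6 and 186 to 206 in BTBR/R, all 5 of them detected. Single oligodendrocyte probes differed by -0.80, for Mobp, to 0.48, for Mbp. The part of these cells in the values of the CoA and peroxisome list was not tested.

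**Figure D4:**
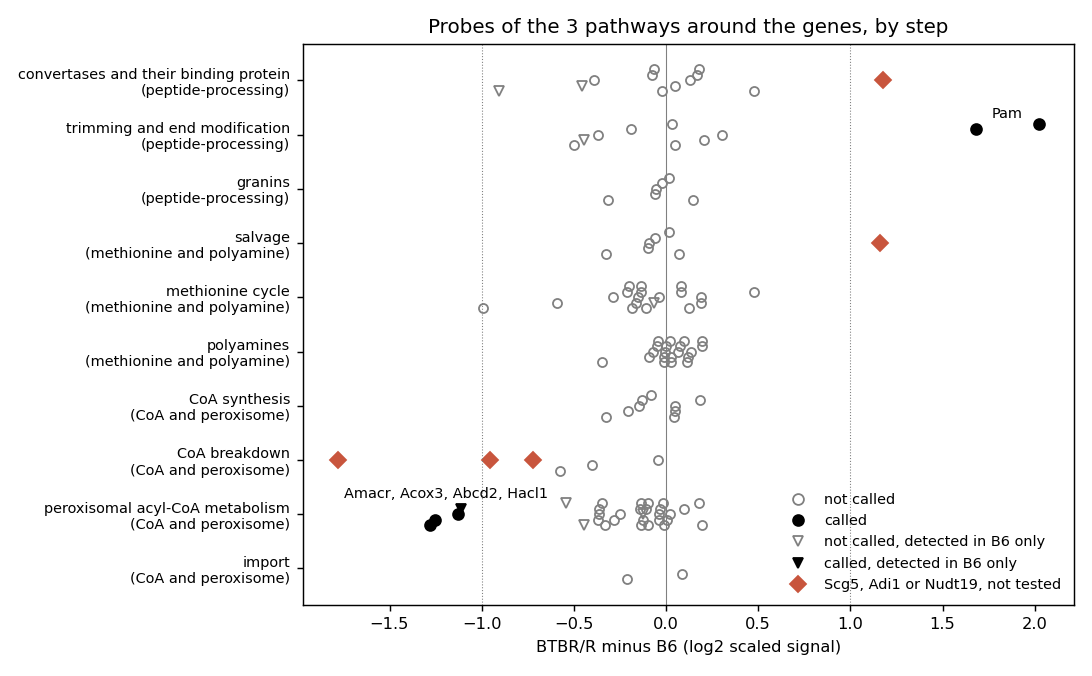
Difference between strains (BTBR/R minus B6, log2 scaled signal, horizontal axis) of the probes of the 3 pathways detected in all 4 mice of a strain, in rows by step. Filled symbols were called (adjusted p below 0.05 in limma and at least 2-fold, dotted lines) and are named, open ones were not called, triangles were not well above background on any BTBR/R array and have no exact value, and diamonds are the probes of Scg5, Adi1 and Nudt19, placed in the row of their step and not tested. The called probes are the 2 of Pam, at 1.68 and 2.03, and those of Amacr, Acox3 and Abcd2, between -1.28 and -1.13, with a triangle for Hacl1.

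The probes whose pattern over the 8 arrays was most like each listed probe were found by the root mean square (RMS) of the differences between scaled signals, each probe centred on its own mean, among the named probes detected on all 8 arrays (25017 for Scg5 and Adi1, 25015 for Nudt19). For Scg5 these were Rragd (RMS 0.0558), Cap1 (0.0636) and Vps39 (0.0647), against a median of 0.597 over all probes compared. For Adi1 they were Lrrc49 (0.0488), Mro (0.0584) and Fndc1 (0.0595), against a median of 0.589. For Nudt19 they included Bpnt1 (RMS 0.0621) and Galk2 (0.0686), against a median of 0.898. Since strain makes up most of the pattern, likeness here says that the strain difference was of a similar size, 1.09 to 1.17 for the probes like Scg5, 1.09 to 1.13 for those like Adi1 and -1.88 to -1.69 for those like Nudt19. The other detected probes of the same genes varied in how far they shared it. They differed by 0.00 and 0.08 for Rragd and by -0.43 for Bpnt1, but by 0.68 for Cap1 and 0.86 for Fndc1. Those of Mro ran from -1.67 to 0.98. These likenesses are a description over 8 arrays and carry no p.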

How the data were processed

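Cy3-labelled RNA of each of 8 mice was hybridised to 1 Agilent SurePrint mouse array (1 colour), and the deposited scanner files hold spot intensity from Feature Extraction 10.7.3.1. The authors' deposited value table holds log2 values. For 99.97% of probes or more these lay within 0.01 of the log2 processed signal after 1 shift per array, with column medians of -2.99 to -2.89, and the table was used as an alternative. In all, 0 columns were left unused. The number of arrays limits the precision. Here control and outlier spots were removed, spots of a probe averaged, and the log2 processed signal was scaled to the 75th percentile of each array (main setting). Strains were compared with limma 3.58.1 in R 4.3.3, p-values were adjusted by Benjamini-Hochberg over the 56605 probes, and the script was tested on simulated data. Groups came from the labels, and a p-value measures the spread between mice. Probe names and positions (mm9) are those of the scanner files, and 32994 of 35886 RefSeq accessions were matched to current symbols. The sequence of BTBR/R under the probes was not analysed here.

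The genes, lists and tests were chosen with earlier results of these data known. Named were the 3 genes with every probe, their nearest neighbour on each side, every flanking or list gene with a called probe detected in all 4 mice of a strain, 6 further genes per list, and the 3 probes most like each listed probe, 1 of which is not reported here. Scg3, Mat2b, Pank3, Pank4 and the single marker genes of microglia, oligodendrocytes and cortical and striatal projection neurons were added after their values were seen. Other settings tried were normexp background correction with an offset of 50, quantile and median scaling, a percentile over detected probes, 2 filters on dim probes, a floor at the highest detection limit, limma with trend and robust moderation, the methods' t-test, the replicate number as a block, and leaving out each mouse.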

Additional observations from a re-analysis of the deposited data

Results flagged for a closer look

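Among 43 probes of the genes named here that were detected on all 8 arrays, the highest or lowest of the 4 mice of a strain stood apart from the other 3 by Dixon's test in 4 of 86 groups, and chance alone flags about 1 in 20 groups. None of the 5 probes of Scg5, Adi1 and Nudt19 was among them. Chgb had a scaled signal of 6.26 in B6 replicate 1 and 6.44 to 6.46 in the other B6 mice. Rnaseh1 probe A_55_P2497310 was at -1.61 in B6 replicate 4 and at -1.94 to -1.89 in the other B6 mice, and at -1.72 in BTBR/R replicate 2 and -1.62 to -1.60 in the other BTBR/R mice. Trappc12 probe A_52_P555680 was at 2.52 in B6 replicate 2 and at 2.59 to 2.60 in the other B6 mice.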

How the results depend on the processing

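The differences of Scg5, Adi1 and all Nudt19 probes kept their direction under the other scalings, background correction, filters, floor and authors' values, the replicate block and each left-out mouse. The methods' t-test and the trend and robust moderation are not reported for these differences, which carry no test. Scg5 ran from 1.15 to 1.20 over 9 settings. Under normexp background correction the difference was 1.02 for Adi1, -1.69 for the listed Nudt19 probe and -0.81 for A_55_P2646703, the called flanking probes numbered 5, the called CoA and peroxisome probes 2 and all called probes 516, and the cause was not tested. A fit limited to probes detected on all 8 arrays has fewer probes to call and gave 4 flanking probes and 631 of all probes, and the floor at the highest detection limit gave 789 of all probes, with Ryr3 (-0.17), Allc (0.17), Gm20187 (0) and Hacl1 (0) no longer called. Mat2b brought the methionine and polyamine count to 1 under quantile normalization, median scaling and the percentile of detected probes, and also without B6 replicate 3 (-1.08) or BTBR/R replicate 2 (-1.09).

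Leaving out each mouse in turn gave 1.15 to 1.21 for Scg5, 1.13 to 1.18 for Adi1 and -1.81 to -1.76 for the listed Nudt19 probe, with 8 to 11 flanking, 2 to 3 peptide-processing, 0 to 1 methionine and polyamine, 4 to 4 CoA and peroxisome and 1492 to 1626 of all probes called. Ryr3 lost its call without B6 replicate 1 (-0.86) or 2 (-0.88) and without BTBR/R replicate 1 (-0.95), 2 (-1.04), 3 (-1.10) or 4 (-1.12). Allc lost it without B6 replicate 1 (0.95) or 3 (0.95) and without BTBR/R replicate 3 (0.98) or 4 (0.97).

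The replicate numbers did not pair the mice: deviations of same-numbered mice correlated at 0.00, -0.07, -0.04 and 0.16 for numbers 1 to 4, and only number 4 matched its own number best. With the replicate block the differences were 1.18 for Scg5, 1.16 for Adi1 and -1.78 for the listed Nudt19 probe, and 9 flanking (Ryr3 lost), 2 peptide-processing, 0 methionine and polyamine, 4 CoA and peroxisome and 1497 of all probes were called. Depth of signal limits dim probes most: the lowest detected signal was higher in BTBR/R than in B6, so a probe detected in B6 alone has a bound or, near the limit, no fold at all.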
